A study of Homo sapiens with 4 samples.

Results

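The 205 regions called as enriched for H3K9me3 on chromosome 19 in BJ-HELT cells are described here, out of 5211 in the genome (3.93%). They were chosen by chromosome alone. They were then divided, by the midpoint of each region, into 114 that lay in 5 windows known to hold clusters of KRAB zinc finger genes and 91 on the rest of the chromosome. H3K9me3 is a histone mark of heterochromatin, histone H3 with 3 methyl groups on lysine 9, and was measured by ChIP-seq, in which DNA bound to the marked histone is precipitated and sequenced. The libraries were 2 H3K9me3 precipitates and 2 input DNA controls. All came from 1 line, BJ-HELT, made from human foreskin fibroblasts by expression of hTERT, the catalytic subunit of telomerase, and of the early region of SV40. Cells were untreated as far as the labels say and at passage 10 to 11. The data were a single list of regions for all 4 libraries, in which every region has its position and a whole-number count. The count is not named in the list and was read as the number of ChIP reads in the region. No value below therefore has a replicate error, the depth of each library is unknown, and no difference could be tested. Intervals cover counting error only, and because neighbouring regions lie in groups they are narrower than the true uncertainty.

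KRAB zinc finger proteins form a large family of DNA-binding repressors in mammals, and chromosome 19 carries more of their genes than any other human chromosome. Each has an array of zinc fingers that reads a DNA sequence, often within a transposable element, and a KRAB domain that recruits the corepressor TRIM28. TRIM28 in turn brings SETDB1, an enzyme that writes H3K9me3. The genes arose largely by tandem duplication, lie side by side in clusters, and are themselves common sites of H3K9me3, often over the exon that encodes the zinc fingers.

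Gene names show the scale of zinc finger clusters on chromosome 19, although a symbol does not tell whether a protein has a KRAB domain. The RefSeq table of GRCh38, used for names and order only because the regions are on hg19, lists 1442 protein-coding genes on chromosome 19, read-through entries left out. Of these, 261 (18.1%) have a zinc finger symbol (ZNF, ZFP, ZSCAN, ZIM, or PEG3), and 230 of them stand in 24 runs of at least 3 neighbours. Placing runs in windows rests on background knowledge of the chromosome and is not an overlap computed here. Window 1 (19.9 to 24.6 Mb) is the short-arm cluster beside the centromere, with the run of 27 genes from ZNF737 through ZNF43, ZNF208 and ZNF91 to ZNF681. Window 2 (35 to 38.5 Mb) holds the run of 24 genes from ZNF565 through ZNF382 and ZNF568 to ZNF793, and window 3 (44.3 to 45 Mb) the run of 20 from ZNF283 through ZNF45 and ZNF224 to ZNF180. Window 4 (51.5 to 54 Mb) holds 4 runs, among them the 10 genes from ZNF577 to ZNF836 and the 11 from ZNF611 to ZNF665. Window 5 (56 to 59.1 Mb) holds several runs, including 16 genes from ZNF530 to ZNF256 and the 9 from ZNF606 to ZSCAN22. The run that ends at ZSCAN22 contains ZNF274, whose protein is known to bind zinc finger genes and to bring SETDB1 to them. Both of these runs stand late in the gene order, and window 5 had no region in its last 965.4 kb. Whether any region lies on these genes was not computed. Some zinc finger genes lie outside the windows, among them the short-arm runs from ZNF699 to ZNF846 (10 genes) and from ZNF627 to ZNF791 (24 genes).

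H3K9me3 regions were more numerous for the length and more closely spaced in the pooled zinc finger windows than on the rest of chromosome 19. Their length and their counts per kb differed little. The windows made up 24.6% of the stretch examined and held 55.6% of its regions (95% Wilson interval 48.8 to 62.2%). They had 7.86 regions per Mb (114 over 14.5 Mb, exact Poisson 95% interval 6.49 to 9.44), and the rest had 2.04 (91 over 44.5 Mb, 1.65 to 2.51), a ratio of 3.85. Regions covered 4.16% of the windows (602.6 kb) and 1.31% of the rest (584.8 kb). The median length was 4200 bp in the windows, with quartiles of 3200 and 6200 bp, and 4400 bp on the rest, with quartiles of 2800 and 5900 bp. Density had a median of 30 counts per kb in the windows (quartiles 27.3 and 35.3) and 32.1 on the rest (28.0 and 41.2). The 3177 regions of the other autosomes had medians of 4000 bp and 30.9 counts per kb, between quartiles of 2800 and 5600 bp and of 27.4 and 38.6 counts per kb. The quartile ranges of all 3 sets overlapped in both measures, and the upper quartile of density was highest on the rest of chromosome 19. Only regions that passed the caller's threshold are in the list, which limits how far the sets can differ in density. The part of the likeness set by the calling was not tested.

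**Figure D1:**
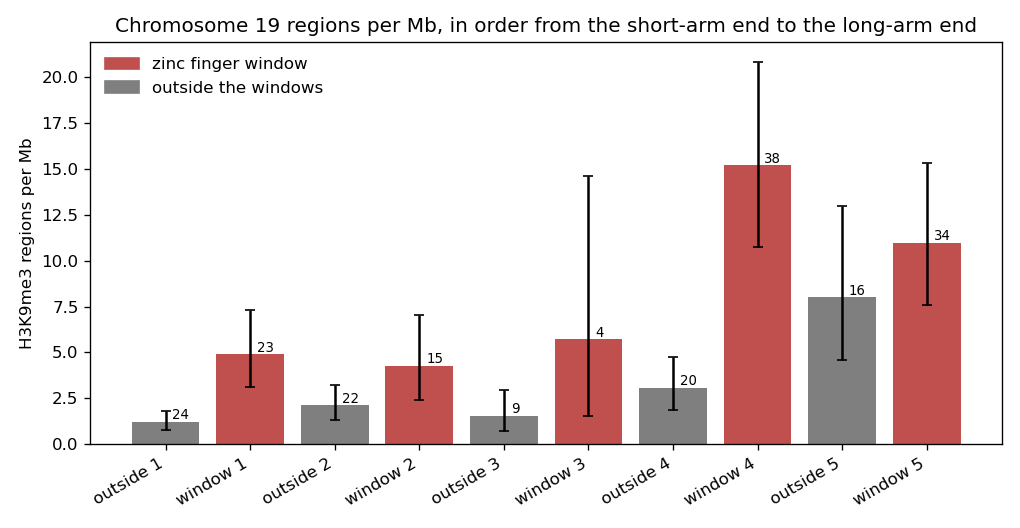
H3K9me3 regions per Mb in the 5 zinc finger windows (red) and the 5 stretches outside them (grey), in order along chromosome 19. Bars are regions divided by the length of the window or stretch, error bars are exact Poisson 95% intervals for counting error, and the number beside each bar is its count of regions. Windows 4 and 5 stand highest, at 15.2 and 11.0 regions per Mb, followed by the stretch between them, at 8.0.

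The windows were not alike. Window 4 had the highest rate, with 38 regions or 15.2 per Mb (10.8 to 20.9), and window 5 followed with 34 or 11.0 per Mb (7.60 to 15.3). Together these 2 long-arm windows held 72 of the 114 window regions (63.2%). Window 3 had 4 regions (5.71 per Mb, 1.56 to 14.6), window 1 had 23 (4.89, 3.10 to 7.34) and window 2 had 15 (4.29, 2.40 to 7.07). The intervals of windows 1, 2 and 3 overlapped one another, those of windows 4 and 5 did too, and that of window 3, with so few regions, overlapped all others. Windows 4 and 5 carried the ratio of 3.85: with both left out it was 2.31.

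Outside the windows the rate also varied. The stretch between windows 4 and 5 (54 to 56 Mb), known for receptor genes of the LILR and KIR families of leukocytes and natural killer cells, had 16 regions or 8.0 per Mb (4.57 to 12.99), above windows 1 to 3 in value. That rate lay past the upper limits of windows 1 and 2 and inside the interval of window 3, and its own interval overlapped those of all 3. A group of 8 regions there lay between 55194801 and 55372400 and covered 43.0 kb. The 6.5 Mb between windows 3 and 4 had 20 regions (3.08 per Mb), the 10.4 Mb between windows 1 and 2 had 22 (2.12), the 5.8 Mb between windows 2 and 3 had 9 (1.55), and the 19.8 Mb before window 1 had 24 (1.21). The 0.5 Mb flanks of all windows together had 2.67 regions per Mb, and the rest farther away had 1.97. With flanks of 1 Mb, which take in all 16 regions between windows 4 and 5 among their 33, the rates were 3.67 and 1.63. The short arm from 9 to 13 Mb, where 2 further zinc finger runs are known to lie, had 8 regions. Its rate of 2.00 per Mb was close to the 2.04 of the rest as a whole. This stretch was not cut to the runs, so its rate is not that of the runs themselves.

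Among bins of 1 Mb, the fullest on chromosome 19 was 57 to 58 Mb in window 5, with 24 regions, followed by 52 to 53 Mb in window 4 with 20. They ranked 14 and 20 among the 977 autosomal bins that held a region, whose median was 2. Of 18 bins that touched a window, 10 held at least 5 regions and 2 held none. Of the other 42 bins, 6 held at least 5 and 11 held none.

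**Figure D2:**
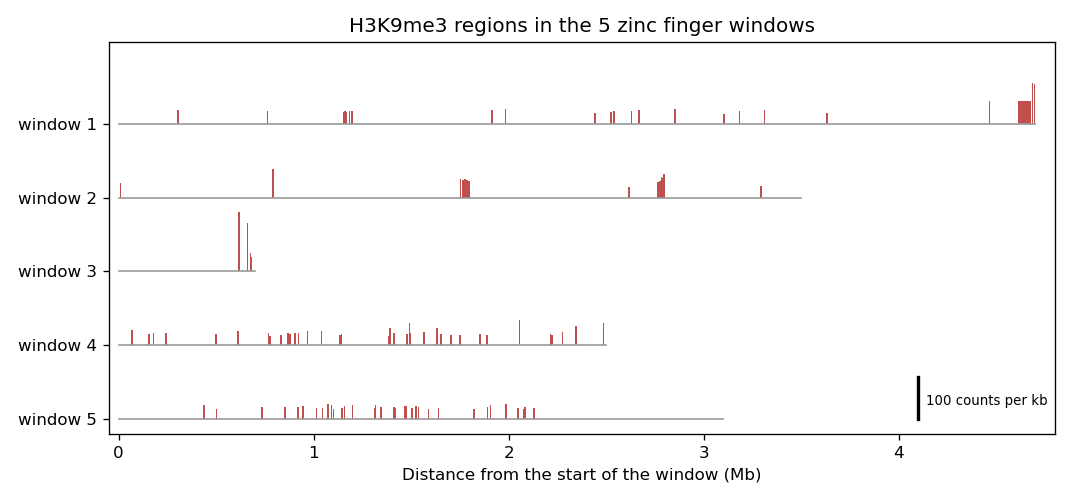
Position of each H3K9me3 region in the 5 zinc finger windows, as distance from the start of the window in Mb, with height proportional to counts per kb (scale bar 100). Regions under 8 kb are drawn 8 kb wide. Regions are spread at low height through window 4 and through the middle part of window 5. Most are gathered in 2 tight blocks in window 2, and all are confined to the last part of window 3.

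Regions of windows 4 and 5 were all under 10 kb, and density ranged more widely in window 4 than in window 5. The 38 regions of window 4 ran from 0.8 to 7.0 kb in length, with a median of 4200 bp and quartiles of 3000 and 4600 bp, and density had a median of 29.0 counts per kb (range 21.8 to 60). The longest was also the one with the most counts (53129801 to 53136800, 7.0 kb, 295 counts), and the densest was the shortest (53552401 to 53553200, 0.8 kb, 48 counts). The 34 regions of window 5 ran from 2.2 to 8.6 kb, with a median of 4100 bp, and density had a median of 28.7 counts per kb (range 24.0 to 35.8). The longest, at 58126001 to 58134600 with 240 counts, was also the last region of the chromosome. The one with the most counts (253) lay just before it, at 58081201 to 58089600, and the densest, at 57070201 to 57072600, had 35.8 counts per kb. None of these 72 regions reached 10 kb, and 66 of them (91.7%) had under 40 counts per kb. In window 4 the first and last regions spanned 96.8% of the window, whereas window 5 had none in its first 433.0 kb or in its last 965.4 kb. Within the 1701.6 kb between its first and last region, window 5 reached 19.98 regions per Mb.

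Window 2 was arranged in another way. Of its 15 regions, 10 lay in 2 compact blocks in which neighbours were at most 3.0 kb apart. The first block had 5 regions between 36750401 and 36799600, covering 43.8 of 49.2 kb with 1831 counts. It included the longest region of the window (36759601 to 36772200, 12.6 kb, 519 counts). The second block lay 961.2 kb further on, with 5 regions between 37760801 and 37794600 that covered 30.4 of 33.8 kb with 1279 counts. The 2 blocks together accounted for 81.4% of the covered length of window 2 and for 84.2% of its counts, and had 41.8 and 42.1 counts per kb. Of the gaps inside them, 6 measured 800 bp, the smallest gap in the whole list. The densest region of window 2 stood by itself at 35787601 to 35790000 (2.4 kb, 163 counts, 67.9 per kb). The median gap in window 2 was 1.0 kb, whereas the upper quartile was 406.0 kb.

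Window 3 was marked only near its long-arm edge. No region lay between 43833600 and 44912801, a distance of 1079.2 kb that took in the first 612.8 kb of the window, and all 4 regions lay within 66.6 kb, or 9.51% of it. They had 1175 counts over 8.4 kb (44912801 to 44921200), 820 over 7.2 kb (44957401 to 44964600), 71 over 1.6 kb (44973201 to 44974800) and 111 over 3.2 kb (44976201 to 44979400). The first 2 had 139.9 and 113.9 counts per kb, and the others had 44.4 and 34.7. The first was the densest region in any window. By background knowledge, ZNF285, ZNF229 and ZNF180 are the zinc finger genes at this end of the cluster.

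Window 1 held 2 kinds of region. In 19 of its 23 regions, at 20198001 to 23532200, density ran no higher than 35.8 counts per kb, with a median of 30, and length no higher than 10.6 kb. This group included 5 regions within 51.2 kb at 21049001 to 21100200, which covered 34.8 kb with 1026 counts. The other 4 began after an empty 829.8 kb and lay between 24362001 and 24596800, at the centromere. They covered 78.6 kb with 4675 counts and had a median density of 74.6. The longest region of chromosome 19 was one of them (24511801 to 24577600, 65.8 kb, 3535 counts, 53.7 per kb), and the densest of window 1 followed it (24582201 to 24588800, 6.6 kb, 641 counts, 97.1 per kb).

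**Figure D3:**
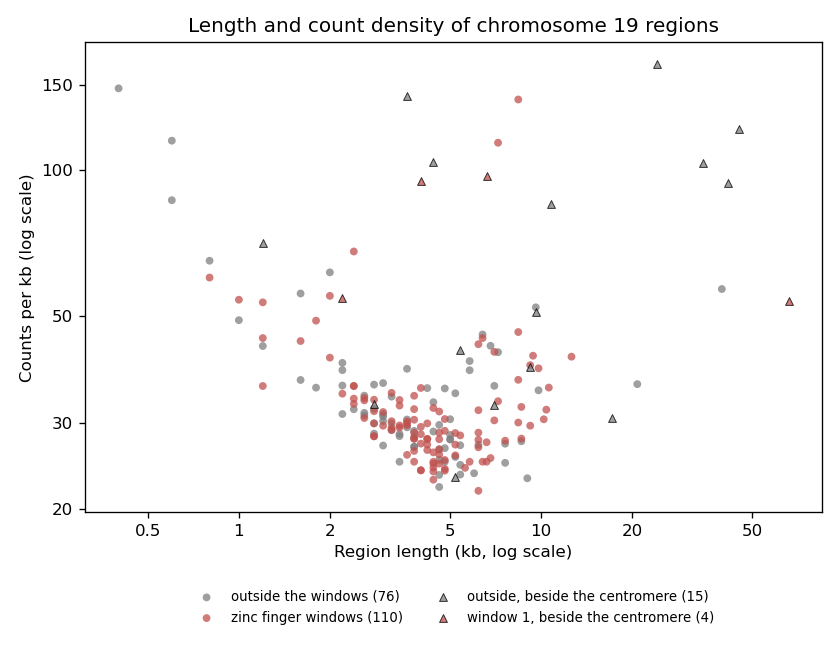
Length in kb (x, log scale) against counts per kb (y, log scale) for the 205 regions of chromosome 19, one symbol per region. Triangles mark the 19 regions within 0.5 Mb of the empty stretch at the centromere, and circles mark the other 186. Of the 6 longest regions, 5 are triangles and 1, at 39.6 kb, is a circle.

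The regions with the highest counts lay beside the centromere, on both sides of an empty stretch of 3.11 Mb (24631801 to 27742800). Within 0.5 Mb of that stretch were 19 regions, 9.27% of those on the chromosome, with 25.3% of the covered length and 45.5% of the counts. On the short-arm side, 34.2 kb at 24597601 to 24631800 held 3534 counts (103.3 per kb), and its midpoint fell just past the edge of window 1. On the long-arm side, 27748001 to 27772200 held 4012 counts over 24.2 kb, 165.8 per kb and the highest density of the chromosome. Further along lay 41.4 kb at 27821401 to 27862800 (3886 counts, 93.9 per kb) and 45.2 kb at 27863601 to 27908800 (5505 counts, 121.8 per kb), the region with the most counts. The first region on that side, 27742801 to 27746400, had 511 counts over 3.6 kb (141.9 per kb). The 14 regions of this side, up to 28210400, formed a single group with 17428 counts. The share of repeated sequence in these counts was not tested.

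Without the 19 regions beside the centromere, the contrast in number remained and that in spacing grew. The windows then had 7.84 regions per Mb and the rest 1.86. The median length was 4200 bp in 110 window regions and 3800 bp in 76 others, and the median density 29.9 and 31.1 counts per kb. The count summed over regions and divided by covered length also changed. It was 37.5 counts per kb in the windows and 57.7 on the rest with all regions, and 34.2 and 35.2 without those 19.

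Away from the centromere, the longest region outside the windows lay on the short arm at 8858801 to 8898400, with 2250 counts over 39.6 kb (56.8 per kb), and headed a group of 6 regions that reached 9095200. The second-highest density outside the windows was that of the shortest region of the chromosome, 59 counts over 0.4 kb at 16584601 to 16585000 (147.5 per kb). The first region of chromosome 19 lay at 61401 to 64200 (101 counts over 2.8 kb). Regions of 10 kb or more numbered 5 in the windows (4.39%) and 8 on the rest (8.79%), and regions of 1 kb or less numbered 2 (1.75%) and 5 (5.49%). The other autosomes had 7.90% and 3.65%.

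Among regions under 6 kb, short ones had more counts per kb (Spearman rho = -0.75 over 82 regions of the windows and -0.58 over 68 of the rest, a description across neighbours on 1 chromosome). Density has length as its divisor, and the list holds only regions that were called, with no count under 43 on this chromosome. A negative rho can therefore arise from the measure and the calling alone, and how far it did was not tested. Over regions of all lengths the relation was weak (rho = -0.19 over 114 and -0.11 over 91). Each count was therefore also divided by the median count of regions of the same length on the other autosomes, for lengths with at least 10 such regions. A ratio could be given for 105 window regions and 79 others. Its median was 1.01 in both, with quartiles of 0.94 and 1.10 in the windows and 0.94 and 1.22 on the rest. A count and its reference both come from called regions, so a ratio near 1 can come partly from the calling, which was not tested. At equal length, regions of windows 4 and 5 had counts like those of called regions on other autosomes. Their medians were 0.98 (38 regions) and 1.02 (33 regions), with no ratio above 1.43. Window 1 had a median of 0.99 (18 regions), with 2 regions at the centromere at 3.48 (24582201 to 24588800) and 3.38 (24592801 to 24596800). The rest also had 2 regions above 2, both beside the centromere, at 5.01 (27742801 to 27746400) and 3.80 (27811801 to 27816200). Window 2 had 1.32, and 10 of its 12 regions with a ratio were above 1. In window 3 all 4 were above 1, at 4.47, 3.87, 1.08 and 1.16.

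**Figure D4:**
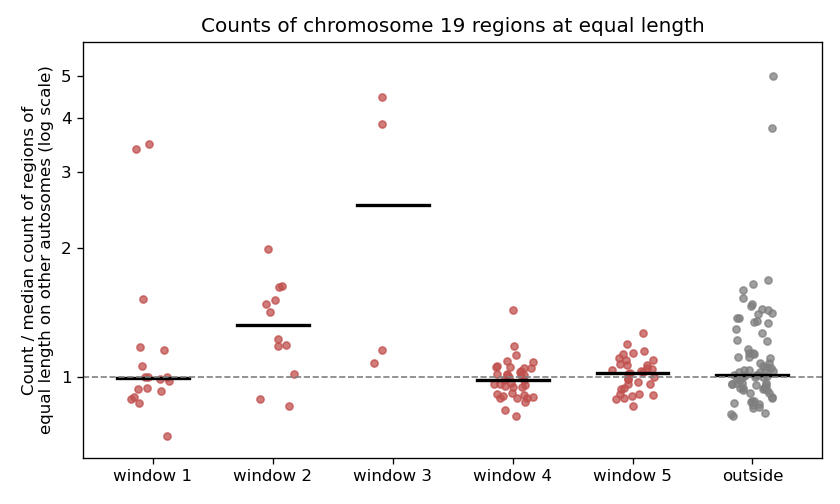
Count of each chromosome 19 region divided by the median count of regions of equal length on the other autosomes (y, log scale), by window and for the rest of the chromosome. Points are regions, black lines are medians and the dashed line marks 1. Windows 1, 4 and 5 have medians of 0.99, 0.98 and 1.02, window 2 has 1.32, and 2 regions each of window 1, of window 3 and of the rest lie above 3.

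With the windows pooled and the outside stretches pooled, spacing separated windows and rest more than length, count or density did. Between neighbours in the same window the median gap was 38.2 kb (109 gaps, quartiles 7.40 and 94.6 kb), and between neighbours in the same outside stretch it was 86.4 kb (86 gaps, quartiles 17.7 and 560.5 kb). The median over the other autosomes was 86.8 kb. Gaps under 5 kb made up 23.9% of those in windows (26 of 109, Wilson interval 16.8 to 32.7%) and 8.14% of those outside (7 of 86, 3.999 to 15.9%). Gaps of 500 kb or more made up 4.59% (5, 1.98 to 10.3%) and 29.1% (25, 20.5 to 39.4%). Of the 26 gaps under 5 kb, window 2 held 9, window 4 held 7, window 1 held 5, window 5 held 4 and window 3 held 1. The median gap was 33.0 kb in window 5 and 46.4 kb in window 4, and 82.7 kb in window 1. Part by part, the order was not the same throughout. In the stretch between windows 1 and 2 the median gap was below those of windows 1, 4 and 5. Between windows 3 and 4 (64.4 kb) and between windows 4 and 5 it was below that of window 1 only. Before window 1 (494.8 kb) and between windows 2 and 3 (575.0 kb) it was above that of every window. The medians of windows 2 and 3 were below those of all outside stretches. Without the regions beside the centromere the median gap outside rose to 137.2 kb and that in the windows stayed at 38.2 kb. With all regions kept and those under 5 kb apart joined, the median gaps were 62.8 kb in the windows and 106.4 kb outside. The windows then had 6.07 joined regions per Mb and the rest 1.86, a ratio of 3.26.

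**Figure D5:**
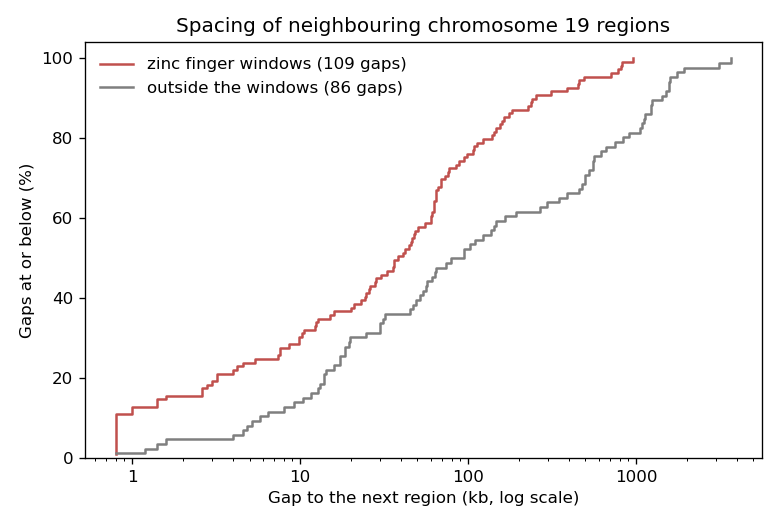
Cumulative share of gaps between neighbouring regions (y, %) at or below a given size (x, kb, log scale), for 109 gaps inside windows and 86 inside the stretches between them. The window curve lies to the left, with medians of 38.2 and 86.4 kb, and the curves part most above 100 kb.

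When neighbours under 100 kb apart were joined, 159 of the 205 regions fell into 29 groups of at least 2. The 5 groups with the most regions comprised 4 in windows 4 and 5 and 1 beside the centromere, on the long arm. The largest had 15 regions over 509.6 kb in window 4 (52879201 to 53388800, 61.6 kb covered, 1794 counts). Window 4 also had a group of 11 over 376.6 kb (52265801 to 52642400). Window 5 had groups of 12 over 335.4 kb (57307601 to 57643000) and 11 over 349.8 kb (56849001 to 57198800). These 4 groups had between 27.3 and 29.2 counts per covered kb, and the 14 regions beside the centromere, over 467.6 kb, had 93.1. The longest stretches without a region were 3.69 Mb on the long arm (30534401 to 34224000), 3.61 Mb on the short arm (16585001 to 20198000), which ended in window 1, and the 3.11 Mb at the centromere. These stretches had no call at a threshold that is not known, which does not show that H3K9me3 was absent. Whether reads could be placed throughout them was not examined, and all of them were kept in the lengths used for the main rates.

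Against other chromosomes, chromosome 19 was among those with many regions for their size. With 3.53 regions per Mb between its first and last region it ranked 4 of 22 autosomes, after chromosomes 20 (6.77), 16 (4.49) and 22 (3.94), and by covered share (2.04%) it ranked 5. Its median length of 4400 bp was the second highest of the 22, and its median density of 30.6 counts per kb ranked 15, within the range of 28.3 to 48.1 of the others. Its zinc finger windows pooled, at 7.86 regions per Mb (6.49 to 9.44), had a rate above that of any whole autosome. That interval overlapped the one of chromosome 20 (6.14 to 7.45), and windows 1 to 3 alone had 4.72 per Mb, below chromosome 20. The rest of chromosome 19, at 2.04, was below chromosomes 13 (2.37), 21 (3.12) and the 3 named above. A rate over selected windows and one over a whole chromosome are set side by side here and were not tested.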

How the data were processed

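H3K9me3 ChIP and input libraries of BJ-HELT cells were sequenced on SOLiD, per the labels' protocols. The submitters' processing notes name the aligner Bowtie, the broad-region caller SICER and, as builds, hg19 and GRCh37. For versions, settings and the handling of reads with several matches, the sources used here give nothing. In the deposited list there is 1 whole-number count per region for the series as a whole, not scaled for length, depth or input. Reading it as a ChIP read count rests on the 200 bp grid and the form of the list. Library depth is unknown.

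Positions are printed from 1. Density is count per kb of region. Windows were taken at full width, and the rest as the remainder from the first region on. Gaps across a window edge were left out. Wilson and exact Poisson 95% intervals were computed in Python 3.11.15 with numpy 2.4.6, pandas 2.3.3, scipy 1.17.1 and matplotlib 3.10.9. The code was tried on simulated data. No group test was made, because ChIP and input have no values of their own. Named regions are, by rule, the longest, highest in count and densest of each window, the 5 longest, 5 highest and 3 densest of the rest, the ends, the 5 largest groups and the 3 longest empty stretches; the other regions and groups named were chosen after their values were seen. The windows and measures were chosen with earlier results of these data known. Overlap with genes was not computed, since the only gene table used here is on GRCh38.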

Additional observations from a re-analysis of the deposited data

How the results depend on the processing

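No paired analysis was possible because ChIP and input have no values of their own in the list, so leaving out a replicate was impossible too. Of 112 values under other settings, 106 stayed within 1.5 times of the value reported or, for the share of regions in the windows, within its interval. No ratio beyond 1.5 times in either direction crossed 1. Many of the 112 had little room to move. Counting only regions wholly inside a window changed no value, and ending window 5 at the last region left length, density, gap and share as they were. The ratios of median length and density were 0.95 and 0.93 at the outset, so a change of 1.5 times was unlikely. The ratio of regions per Mb ranged from 2.31, with windows 1 to 3 only, to 4.54. The share of regions in the windows was 45.5% without window 4, 46.8% without window 5 and 31.6% with windows 1 to 3 only. The ratio of the gap in windows to that outside was 0.44 for medians and ranged from 0.23, for means, to 0.59. It was 0.28 for medians without the regions beside the centromere. The value of 0.59 was reached with counts at or above the list median, and also with regions under 5 kb apart joined. Ratios of median length ranged from 0.93 to 1.11 and of median density from 0.87 to 1.07, on both sides of 1. Chosen after the data were examined were ending window 5 at the last region, leaving out the regions beside the centromere, windows 1 to 3 only, and 9 to 13 Mb as a further window. The alternative planned for the centromere removed the longest empty stretch, which turned out to lie on the long arm.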
